A study of Mus musculus with 18 samples.

Results

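The joins described here link a RAG-broken coding end on an integrated reporter to the Jκ segments of the mouse immunoglobulin kappa light chain locus, Igk. They are all junctions whose prey position fell on chromosome 6 between 70722400 and 70724100 (mm10), a window that holds the 5 segments Igkj1 to Igkj5, in the 12 coding-join libraries of the series. The window held 378 of 30937 junctions, or 1.22%. The study asked how such breaks are repaired when CtIP cannot be phosphorylated at a conserved ATM/ATR site and when DNA-PKcs is missing. Junctions were read by high-throughput genome-wide translocation sequencing (HTGTS), which starts from a primer beside a known break (the bait) and records the sequence joined to it (the prey).

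The cells were mouse B cells of strain 129 transformed with v-abl, which immortalises B cell precursors, and all carried the pMX-INV recombination substrate. The cells were WT, carried the CtIP A/A allele pair alone, lacked DNA-PKcs alone (DNA-PKcs -/-), or had both changes (CtIP A/A DNA-PKcs -/-, the double mutant). For each genotype 1 library came from cells in G1, after 3 µM of the Abl kinase inhibitor STI571 for 48 or 72 h. A further 2 came from cells in G2, after 24 h of STI571 and 48 h of 10 µM RO3306, a CDK1 inhibitor. Whether replicates were separate cultures or lines is not stated in the labels, and a p value here therefore covers only the spread between these libraries, which may be technical. Genotype and cell line cannot be told apart, and neither can phase and drug treatment. CtIP and DNA-PKcs themselves were not measured, and cell identity rests on the labels, since the junction tables hold no expression values.

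In a developing B cell, the RAG nuclease cuts beside each segment at a recombination signal sequence, made of a heptamer, a spacer and a nonamer. Each cut leaves a hairpin-sealed coding end, which DNA-PKcs and the nuclease Artemis open and trim, and a blunt signal end. Joining of a coding end to another coding end builds the antigen receptor gene, whereas a coding end joined to a signal end is a hybrid join. CtIP promotes the resection of broken ends. In pre-B cells Abl kinase inhibition induces RAG, and the Jκ segments are its natural targets in the kappa locus.

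All 5 segments lie on the plus strand, each as 1 coding exon of an IG_J_gene, with the signal sequence ahead of the segment and the constant exon of Igkc downstream (70726435 to 70726966). Igkj1 spans 70722562 to 70722599, Igkj2 70722916 to 70722954, Igkj3 70723223 to 70723260, Igkj4 70723548 to 70723585 and Igkj5 70723886 to 70723923. The signal sequences are shown because they set the cut site. The letters are from the plus strand of GRCm38.p6 (the sequence behind mm10, RefSeq), with the nonamer at the left and the heptamer at the right in capitals, and the segment starts after the last letter.
Igkj1 signal, chr6:70722523-70722561: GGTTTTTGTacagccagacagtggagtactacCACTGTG
Igkj2 signal, chr6:70722877-70722915: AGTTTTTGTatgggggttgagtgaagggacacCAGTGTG
Igkj3 signal, chr6:70723186-70723222: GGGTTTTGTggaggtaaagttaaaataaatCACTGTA
Igkj4 signal, chr6:70723508-70723547: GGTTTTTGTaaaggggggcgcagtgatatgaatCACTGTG
Igkj5 signal, chr6:70723847-70723885: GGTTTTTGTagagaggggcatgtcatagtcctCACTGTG

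Igkj1, Igkj4 and Igkj5 carried the consensus heptamer CACTGTG and nonamer GGTTTTTGT. Igkj2 and Igkj3 each had 1 mismatch in the heptamer and 1 in the nonamer. The nonamer was taken as the best match at spacers of 21 to 25 bp, which gave a 23 bp spacer at Igkj1, Igkj2 and Igkj5, 24 bp at Igkj4 and 21 bp at Igkj3. The exact heptamer occurred 3 times on the plus strand of the window and 0 times on its minus strand. On chromosome 6 as a whole, 0.887% of consecutive 40 bp stretches held that heptamer on either strand, and 0.107% held the nonamer.

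The segments themselves begin as follows, with the whole annotated coding part printed, because deletions and added bases below are counted from the first letter.
Igkj1: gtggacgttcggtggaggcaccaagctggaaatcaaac
Igkj2: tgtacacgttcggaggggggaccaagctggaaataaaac
Igkj3: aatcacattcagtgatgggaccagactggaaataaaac
Igkj4: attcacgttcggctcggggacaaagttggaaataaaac
Igkj5: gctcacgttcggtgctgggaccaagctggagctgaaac

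A join was placed on the coding side when the prey read ran into the segment and started from 5 bp before to 50 bp after its first base. It was placed on the signal side when the prey read ran the other way and ended within 50 bp before the border or up to 5 bp past it. By this rule 250 joins lay on the coding side, 89 on the signal side and 39 on neither. The most upstream join inside the window was at 70722421 and the most downstream at 70724018. Outside it, the nearest joins were at 70718844 and 70724157, and an equal length of sequence held 0 joins just before the window and 36 just after it. The prey reads matched Igk well: 99.4% of 26753 prey bases equalled the reference, 323 of 378 alignments were equal throughout, and the shortest was 26 bp. Telomere repeats took 38.4% to 76.7% of all junctions in the libraries without DNA-PKcs and 0.959% to 9.91% in the others. None of the Jκ joins counted as such. The repeats were sought in the aligned prey bases, so a join aligned to Igk could hardly count.

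The libraries contributed very unequal numbers. From double mutant cells in G1 came 219 joins, 57.9% of the total and 3.10% of the 7068 junctions of that library. The WT G1 library gave 41, or 1.37% of 2993 junctions. The DNA-PKcs -/- G1 library gave 38 (0.754% of 5042) and the CtIP A/A G1 library 6 (0.719% of 834). So each G1 library held Jκ joins, and the double mutant one lay above the other three.

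As a share of all junctions, the G2 libraries were lower within each genotype. In WT they gave 5 of 535 junctions (0.935%) and 0 of 289. In CtIP A/A they gave 2 of 535 (0.374%) and 3 of 586 (0.512%). The DNA-PKcs -/- G2 libraries gave 0 of 3663 and 2 of 2381 (0.0840%), the sparsest of the 4 genotypes. In the double mutant the G2 libraries gave 14 of 4170 (0.336%) and 48 of 2841 (1.69%). A count of 0 allows a share of up to 1.04% in the WT library of 289 junctions and up to 0.0819% in the DNA-PKcs -/- library of 3663, so that the bound is much looser in the former. Such limits, and all intervals given for single libraries, cover counting error only, because PCR copies of 1 molecule cannot be told apart without molecular identifiers.

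**Figure D1:**
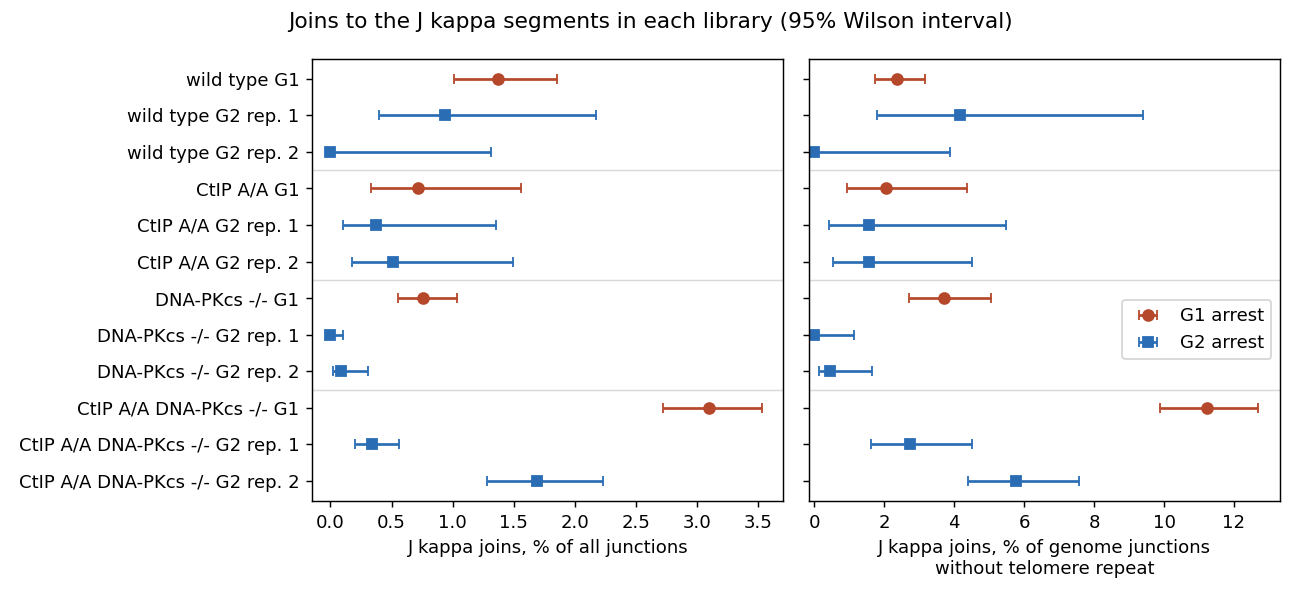
Joins to the Jκ window in each of the 12 libraries, as a percent of all junctions (left) and of genome junctions without telomere repeats (right). Libraries are grouped by genotype and phase, with 95% Wilson intervals as bars (counting error only). The double mutant G1 library is highest, at 3.10% (left) and 11.2% (right), and 1 WT and 1 DNA-PKcs -/- G2 library are at 0.

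Repeated lines were few. Of the 378 lines, 375 were distinct within their library by prey position, strand, bait end and overlap, and 363 were distinct over all libraries. Among these 363, 12 joins were seen in 2 libraries each, 5 of them in 1 library with and 1 without DNA-PKcs, so a small part of the set is shared between libraries. The source of the shared joins was not tested.

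Jκ joins were less frequent in G2 than in G1. With the 4 genotypes weighted equally, they took 1.49% of junctions in G1 and 0.491% in G2, a difference of -0.994 percentage points (95% interval -1.87 to -0.181, exact permutation within genotypes, p = 0.0123, the smallest that 81 arrangements allow, adjusted p = 0.0206 over 5 measures). The mean of the G2 libraries was below the G1 library in all 4 genotypes, with differences of -0.903 points in WT, -0.277 in CtIP A/A, -0.712 in DNA-PKcs -/- and -2.09 in the double mutant. Coding-side joins alone fell from 0.935% to 0.310% of junctions (difference -0.625, interval -1.15 to -0.101, adjusted p = 0.0206, exact permutation). Relative to the substrate's own coding joins, in which the bait is joined to its designed partner, Jκ joins fell from 7.55 to 2.09 per 100 (difference -5.46, interval -9.14 to -2.20, adjusted p = 0.0206, exact permutation).

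The other 2 phase measures did not pass the threshold. Signal-side joins were at 0.409% of junctions in G1 and 0.175% in G2 (adjusted p = 0.123, exact permutation). As a share of genome junctions without telomere repeats, Jκ joins were at 4.83% in G1 and 2.03% in G2 (difference -2.80, interval -5.66 to 0.0655, adjusted p = 0.0926, exact permutation). On this share the first WT G2 library (4.17%, 5 of 120) lay above WT G1 (2.35%), while every other G2 library lay below the G1 library of its genotype.

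The phase result has limits. It rests on 1 G1 library per genotype, and leaving out any 1 of 5 of the 12 libraries (the CtIP A/A, DNA-PKcs -/- or double mutant G1 library, or either DNA-PKcs -/- G2 library) moved the adjusted p past 0.05. Leaving out a G1 library takes its whole genotype out of this comparison. On the log odds scale all 3 phase calls were lost (adjusted p = 0.0988, exact permutation), and the coding-side call was also lost with side windows of 20 bp (adjusted p = 0.0617, exact permutation). By the read names, no other library shared a flow cell (the sequencing unit named in each read) with a first G2 replicate. The first G2 replicates are called the first sequencing run here, and all other libraries the second. Whether each group came from 1 flow cell was not checked. Within the second run the G2 library was again below the G1 library in all 4 genotypes (differences of -1.37, -0.207, -0.670 and -1.41 points in the order above), where the smallest p an exact permutation allows is 0.125.

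The comparison for DNA-PKcs asked whether its loss sends more bait ends to Jκ. No difference passed the threshold, and the intervals were wide. Jκ joins took 1.23% of junctions without DNA-PKcs and 0.750% with it, averaged over strata of CtIP genotype and phase (difference 0.477 points, interval -0.716 to 1.97; exact permutation, p = 0.667, 144 arrangements). Leaving out the CtIP A/A G1 or the double mutant G1 library removes the stratum that holds both. This difference was then -0.157 points. Per 100 substrate coding joins the values were 7.45 and 2.20 (difference 5.25, interval -1.26 to 13.7, p = 0.167, exact permutation). As a share of all junctions the libraries overlapped. Those without DNA-PKcs ran from 0 to 3.10% with a median of 0.545%. Those with it ran from 0 to 1.37% with a median of 0.616%. That total includes telomere repeats, which were more frequent without DNA-PKcs. Of genome junctions without telomere repeats, Jκ joins took 4.85% without DNA-PKcs and 2.01% with it (difference 2.84 points, p = 0.222, exact permutation). The medians of this share had the same order as its means, 3.21% without DNA-PKcs and 1.80% with it. The ranges overlapped (0 to 11.2% and 0 to 4.17%). With that same stratum removed, by leaving out either of its libraries, the difference was 0.728 points.

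For CtIP A/A against CtIP wild type, Jκ joins took 1.32% and 0.658% of junctions (difference 0.660 points, interval -0.571 to 2.09, p = 0.417, exact permutation). Leaving out the DNA-PKcs -/- G1 or the double mutant G1 library removes the stratum that holds both. The difference was then 0.0986 points. The CtIP difference was computed separately with and without DNA-PKcs, a comparison added after the data were examined. It was -0.337 points with DNA-PKcs and 1.66 points without it, where the double mutant averaged 2.06% and DNA-PKcs -/- 0.398%. These CtIP differences were 2.0 points apart (p = 0.0972, exact permutation), which did not pass the threshold. Leaving out the WT G2 library with no Jκ join (289 junctions) moved that value to 2.23 points and its adjusted p to 0.0174. Per 100 substrate coding joins, the CtIP differences were -1.92 and 10.3 (12.2 apart, p = 0.0556, adjusted p = 0.0972, exact permutation). In the libraries without DNA-PKcs alone, the exact permutation p was 0.167, the smallest that 12 arrangements allow.

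Igkj1 was the most used segment on the coding side and Igkj3 was not used at all. Of the 250 coding-side joins, 145 went to Igkj1, the segment nearest the Vκ genes, 56 to Igkj2, 31 to Igkj4 and 18 to Igkj5. On the signal side the 89 joins were split more evenly, with 26 at Igkj1, 31 at Igkj2, 22 at Igkj4 and 10 at Igkj5. The 0 joins at Igkj3 allow a share of up to 1.20% of coding-side and 3.37% of signal-side joins. Igkj3 is the segment with the printed heptamer CACTGTA and the shortest spacer of the 5.

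Igkj1 took 9 of 26 coding-side joins in the WT G1 library (34.6%, Wilson interval 19.4% to 53.8%), ahead of Igkj2 with 8, Igkj4 with 6 and Igkj5 with 3. It took 12 of 24 (50%) in the DNA-PKcs -/- G1 library. In the double mutant it took 87 of 144 (60.4%) in G1 and 8 of 11 (72.7%) and 23 of 35 (65.7%) in G2. The share was thus lowest in the 1 library with DNA-PKcs that had enough joins, and the interval of that library overlaps the value of the DNA-PKcs -/- one.

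The signal side had another order of segments in cells with DNA-PKcs. Of the 15 signal-side joins in the WT G1 library, 7 were at Igkj5, 5 at Igkj2, 3 at Igkj4 and 0 at Igkj1. In the 6 libraries with DNA-PKcs together, the signal-side counts were 0 at Igkj1, 8 at Igkj2, 7 at Igkj4 and 8 at Igkj5, while the coding-side counts were 14, 8, 9 and 3. In the 6 libraries without DNA-PKcs, Igkj1 had 26 signal-side joins of 66 and Igkj5 had 2. These sums are dominated by the WT G1 and double mutant G1 libraries and were not tested across libraries.

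**Figure D2:**
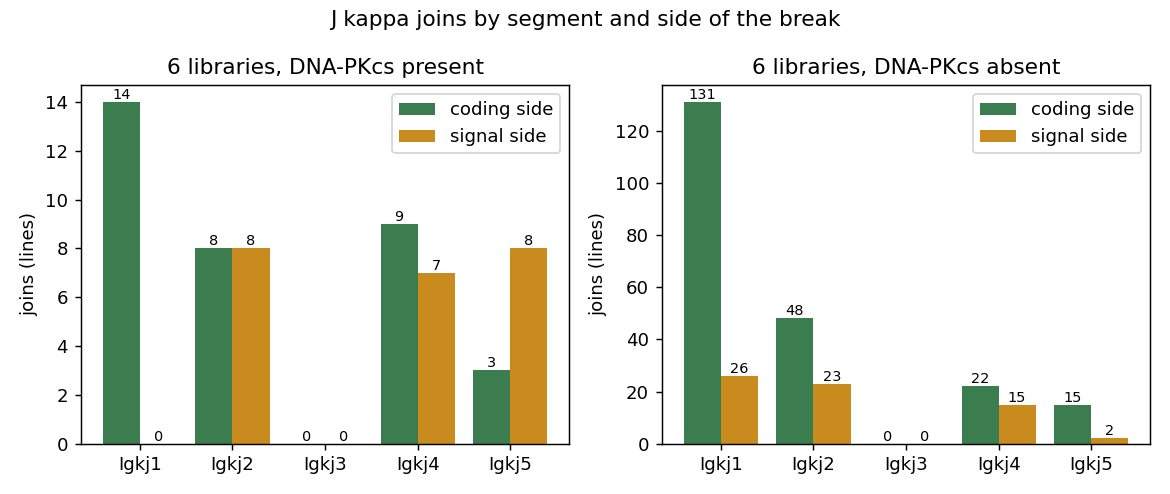
Number of joins on the coding and the signal side of each Jκ segment, summed over the 6 libraries with DNA-PKcs and over the 6 without it. Igkj1 leads the coding side in both, Igkj3 has no join, and Igkj1 has 0 signal-side joins with DNA-PKcs and 26 without it.

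Within libraries, the Igkj1 share was higher on the coding side than on the signal side in 4 of the 4 libraries with at least 5 joins on each side. In the WT G1 library it was 34.6% against 0%, in the DNA-PKcs -/- G1 library 50% against 42.9%, in the double mutant G1 library 60.4% against 40% and in its second G2 library 65.7% against 38.5%. The mean difference was 22.4 points ± 11.7 (SD, n = 4 libraries), with p = 0.125 in an exact sign-flip permutation test, the smallest p that 4 libraries allow (adjusted p = 0.438 over 7 measures).

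The joins also stacked at the borders in a manner that differed between segments. On the coding side 19 of 145 Igkj1 joins, 4 of 56 Igkj2 joins, 6 of 31 Igkj4 joins and 1 of 18 Igkj5 joins kept every base of the segment. The median deletion was 10 bp at Igkj1, 11.5 bp at Igkj2, 11 bp at Igkj4 and 17.5 bp at Igkj5. On the signal side, 17 of 31 Igkj2 joins and 5 of 10 Igkj5 joins lost no base of the heptamer, whereas 5 of 22 did at Igkj4 and 4 of 26 at Igkj1. The median signal-side loss was 0 bp at Igkj2, 2.5 bp at Igkj5, 4 bp at Igkj4 and 18.5 bp at Igkj1, so Igkj1 had both the fewest intact heptamers by share and the longest median loss. These counts pool genotypes, and all Igkj1 signal-side joins came from libraries without DNA-PKcs.

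**Figure D3:**
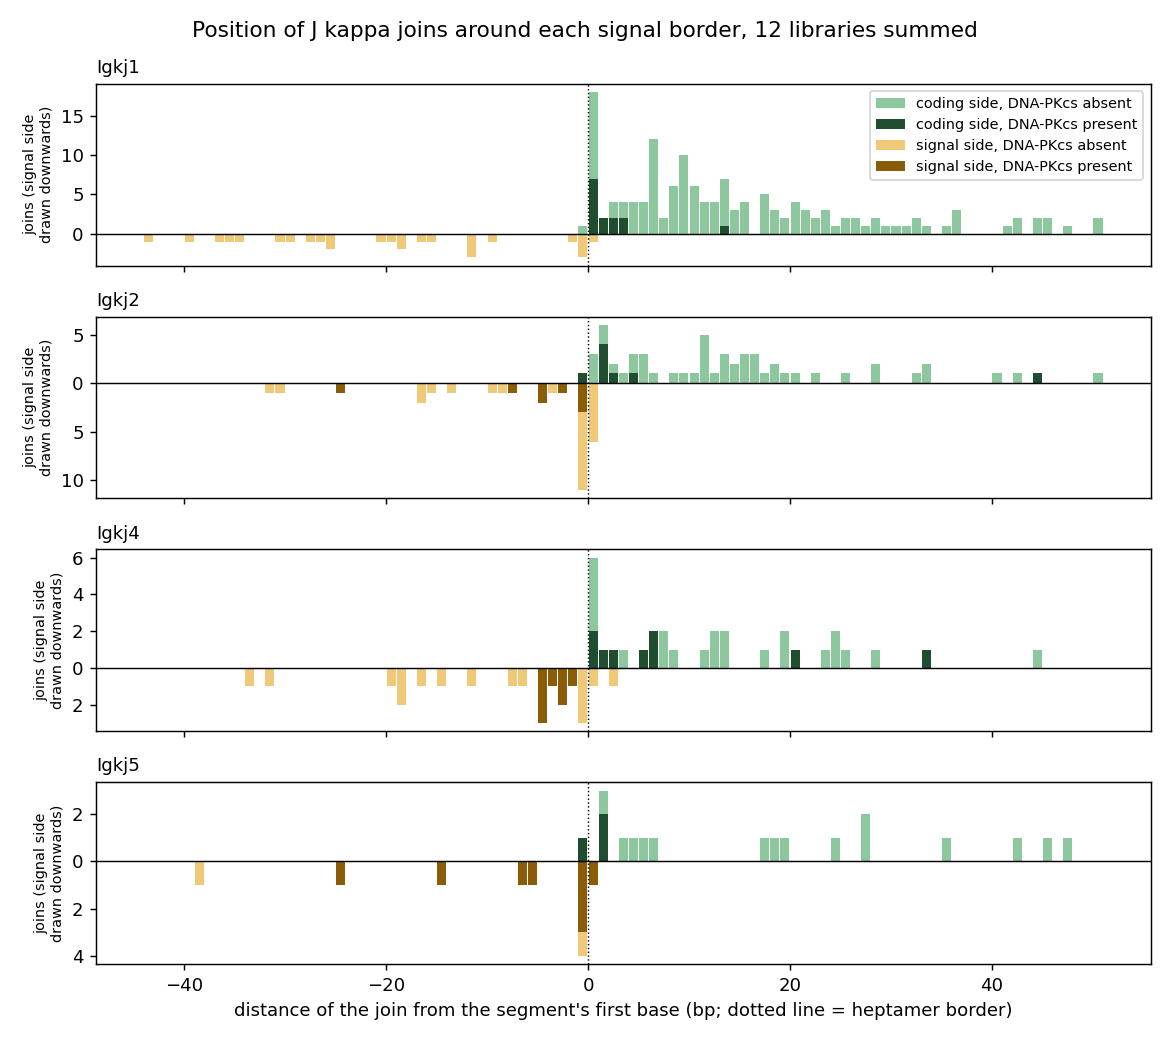
Joins by distance in bp from the first base of Igkj1, Igkj2, Igkj4 and Igkj5, summed over 12 libraries, with coding-side joins drawn upwards and signal-side joins downwards. Joins with DNA-PKcs (dark) lie mostly near the dotted border, with single coding-side joins at 33 and 44 bp. Those without it (light) spread over the coding side up to 50 bp, the limit of the coding-side rule.

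The joins on neither side all came from the libraries without DNA-PKcs. The DNA-PKcs -/- G1 library held 7, the double mutant G1 library 30 and its first G2 library 2. Of these 39 joins, 21 were in the coding direction, 51 to 132 bp past a segment start. The other 18 were in the signal direction, 53 to 297 bp before one. Their median distances from a border were 74 bp in the coding and 76 bp in the signal direction, and Igkj1 was nearest to 24 of them, 11 in the coding and 13 in the signal direction.

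Coding-side joins with DNA-PKcs kept most of both ends. In the WT G1 library the 26 joins had a median deletion of 1 bp from the segment and 2 bp from the bait, and 9 of them kept the whole segment. Bases were added in 14, 10 had microhomology (at least 1 base that both alignments share) and 2 were direct. The other libraries with DNA-PKcs held at most 3 coding-side joins each, so no share is given for them.

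In the following libraries without DNA-PKcs, the median deletions were longer than in the WT G1 library. This difference was not tested across libraries. The 24 joins of the DNA-PKcs -/- G1 library had a median deletion of 11.5 bp from the segment and 43 bp from the bait, and 0 of 24 kept the whole segment. The 144 joins of the double mutant G1 library had medians of 14 and 15 bp, and its G2 libraries had medians of 11 and 11 bp (11 joins) and of 11 and 10 bp (35 joins). Segment deletions over 20 bp made up 7.69% of joins in WT G1, 20.8% in DNA-PKcs -/- G1, 32.6% in double mutant G1 and 18.2% and 11.4% in double mutant G2. These medians and shares stop at the 50 bp limit of the coding-side rule. They leave out the 21 joins in the coding direction past that limit, all from libraries without DNA-PKcs. The bait end of the DNA-PKcs -/- G1 joins was cut back over 20 bp in 75%, more than in any double mutant library, where the share was 22.9% to 41.7%.

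The make-up of the joint differed in the same libraries. Bases were added in 53.8% of WT G1 coding-side joins (Wilson interval 35.5% to 71.2%), against 25% in DNA-PKcs -/- G1, 18.1% (12.6% to 25.1%) in double mutant G1, and 27.3% and 22.9% in double mutant G2. Direct joins were at 7.69% in WT G1 and between 29.2% and 42.9% in the 4 libraries without DNA-PKcs. Microhomology was at 38.5% in WT G1, 37.5% in DNA-PKcs -/- G1, 52.8% in double mutant G1, and 36.4% and 34.3% in double mutant G2, where the WT G1 value lies within the range of the rest. Only 1 library with DNA-PKcs reached 5 coding-side joins, and these shares were not tested between libraries with and without DNA-PKcs.

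Most microhomologies were short. Of the 114 coding-side joins with microhomology, 52 shared only 1 base, 12 shared at least 4 bases, and the longest shared 5. The 5 base ones included TACAC in WT G1 at Igkj2, GTACA in DNA-PKcs -/- G1 at Igkj5, and AGCTG and TCAAA in double mutant G1 at Igkj1. The 4 bases ACGT, which lie in the acgttcgg stretch that Igkj1, Igkj2, Igkj4 and Igkj5 have in common, were shared in 1 Igkj1 and 1 Igkj2 join, both of the double mutant and both with 3 bp lost from the bait.

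Among joins that kept the whole segment, the added bases often repeated the segment as an inverted copy. Such P nucleotides arise when a hairpin is opened away from its tip. For these counts, here and at the bait end below, alignments were first cut at the heptamer borders. Bases aligned past a border could therefore count as added. Of 30 undeleted segment ends, 11 were in libraries with DNA-PKcs and 19 in the double mutant. With DNA-PKcs, 7 of 11 had added bases, 4 had at least 2 bases of inverted repeat next to the segment, and the longest repeat was 2 bp. Without it, 15 of 19 had added bases, 8 had at least 2 bases of inverted repeat, 7 had at least 3, and the longest was 6 bp. The following joins show this, with the added bases in capitals and the first 12 bases of the segment in lower case.
WT G1, Igkj1: ACgtggacgttcgg
WT G1, Igkj1 (2 identical lines): CTACgtggacgttcgg
WT G1, Igkj4: CCCCATattcacgttcgg
Double mutant G1, Igkj1: CCACgtggacgttcgg
Double mutant G1, Igkj1 (2 lines): GTCCACgtggacgttcgg
Double mutant G1, Igkj2: ACAtgtacacgttcg
Double mutant G1, Igkj4: AATattcacgttcgg
Double mutant first G2, Igkj1: CACgtggacgttcgg

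The GTCCAC and CCAC additions are complete inverted copies of the first bases of Igkj1, as are ACA of Igkj2 and AAT of Igkj4. The pair of GTCCAC joins differ at the bait, with 2 and 14 bp lost, so they are not copies of 1 read. In the WT G1 joins CTAC and CCCCAT, the last 2 bases copy the segment and the rest do not. On the bait end, 6 of 27 undeleted ends of coding-side joins without DNA-PKcs had at least 2 bases of inverted repeat, with a longest of 5 bp, against 0 of 6 with DNA-PKcs. These are counts of few joins, with 17 of the 19 undeleted segment ends in the double mutant G1 library, and they were not tested across libraries.

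The Jκ joins were then set beside the substrate's own coding joins of the same libraries, which have the same bait end and another partner. In 5 libraries with at least 5 Jκ coding-side joins, the median deletion from the segment was shorter than that from the substrate partner. It was 1 against 6 bp in WT G1, 11.5 against 16 bp in DNA-PKcs -/- G1, 14 against 17 bp in double mutant G1, and 11 against 14 bp in each double mutant G2 library. The mean difference was -3.7 bp ± 0.975 (SD, n = 5 libraries; exact sign-flip permutation p = 0.0625, the smallest that 5 libraries allow; adjusted p = 0.219 over 7 measures). Deletions over 20 bp were also rarer at Jκ in 5 of 5 libraries, with a mean of 18.2% against 29.1% (difference -10.9 points ± 6.09, n = 5, exact sign-flip permutation p = 0.0625, adjusted p = 0.219). Both sets hold only deletions up to 50 bp, and this comparison was not repeated with other window widths.

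The bait end did not show such an order. Its median loss in Jκ joins was 6, 8, 3 and 4 bp shorter than in substrate joins in WT G1, double mutant G1 and the 2 double mutant G2 libraries, and 16 bp longer in DNA-PKcs -/- G1 (mean difference -1 bp ± 9.70, n = 5, exact sign-flip permutation p = 0.875). Added bases were in 29.4% of Jκ and 35.8% of substrate coding joins on average (difference -6.37 points ± 7.70, n = 5, exact sign-flip permutation p = 0.188), and microhomology in 39.9% and 32% (difference 7.88 points ± 11.3, n = 5, p = 0.188 by the same exact test). In WT G1 these gaps were largest: additions 53.8% against 69.7% and microhomology 38.5% against 16.0%. Where bases were added there, the median length was 1 base at Jκ and 4 at the substrate, and 3 of 14 Jκ additions were over 3 bases against 286 of 528.

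**Figure D4:**
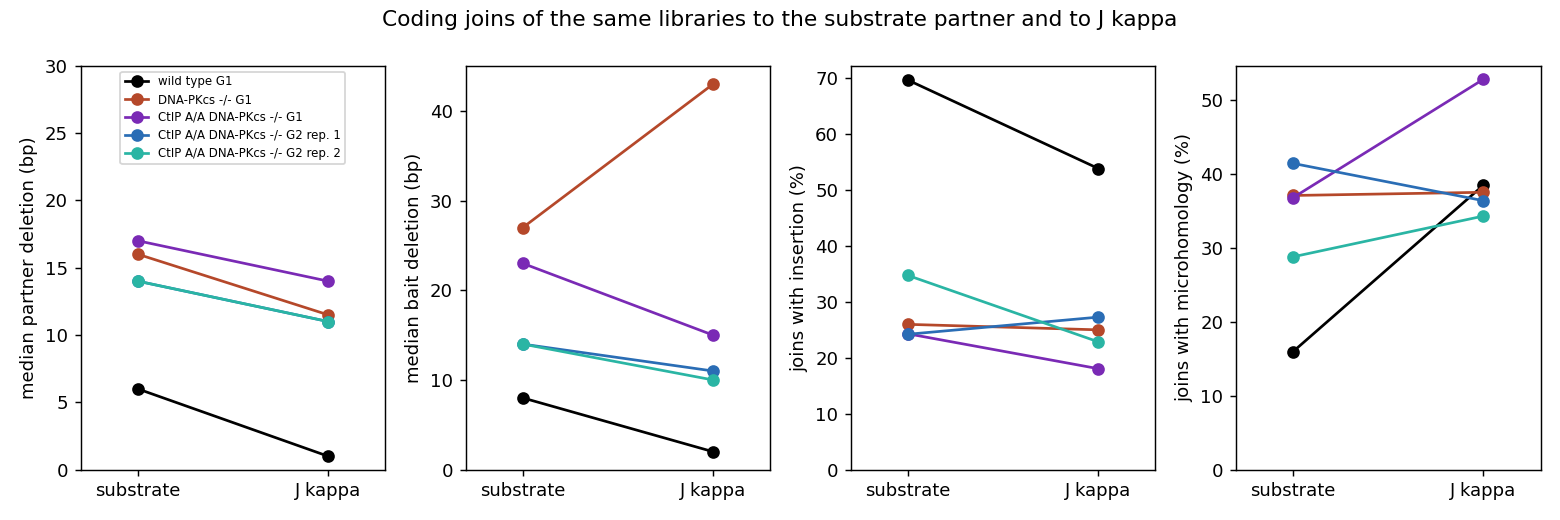
Jκ coding-side joins beside the substrate coding joins of the same library, for the 5 libraries with at least 5 such Jκ joins, each line being 1 library, for the median partner and bait deletions in bp and the percent of joins with added bases and with microhomology. The median partner deletion is lower at Jκ in all 5 libraries (both double mutant G2 libraries overlie at 14 and 11 bp), and the other 3 panels each hold at least 1 library that runs the other way.

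Signal-side joins made up a larger part of Jκ joins than of substrate joins. This comparison was added after the data were examined, and it takes the signal-side joins as a percent of coding-side plus signal-side joins, counted with the same limits around the partner's border on the substrate. In WT G1 the signal-side share was 36.6% (15 of 41) at Jκ and 3.93% (31 of 789) on the substrate. It was 22.6% against 4.73% in DNA-PKcs -/- G1 and 23.8% against 5.99% in double mutant G1. In the double mutant G2 libraries it was 8.33% (1 of 12) against 2.40%, and 27.1% (13 of 48) against 9.99%.

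The remaining libraries had few Jκ joins but lay the same way, with 3 of 5 against 1.43% in the first WT G2 library and 3 of 6 against 3.96% in CtIP A/A G1. Over the 7 libraries with at least 5 border joins, the mean was 32.6% at Jκ and 4.63% on the substrate. The difference was 28.0 points ± 18.7 (SD, n = 7), higher in 7 of 7, with p = 0.0156 in an exact sign-flip permutation test, the smallest that 7 libraries allow. With at least 10 joins required, 5 libraries were left, the difference was 18.3 points, and p was 0.0625, the smallest that 5 allow. The libraries were digested with BstBI to remove germline substrate, a step that acts on substrate reads; its part in this difference was not tested.

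**Figure D5:**
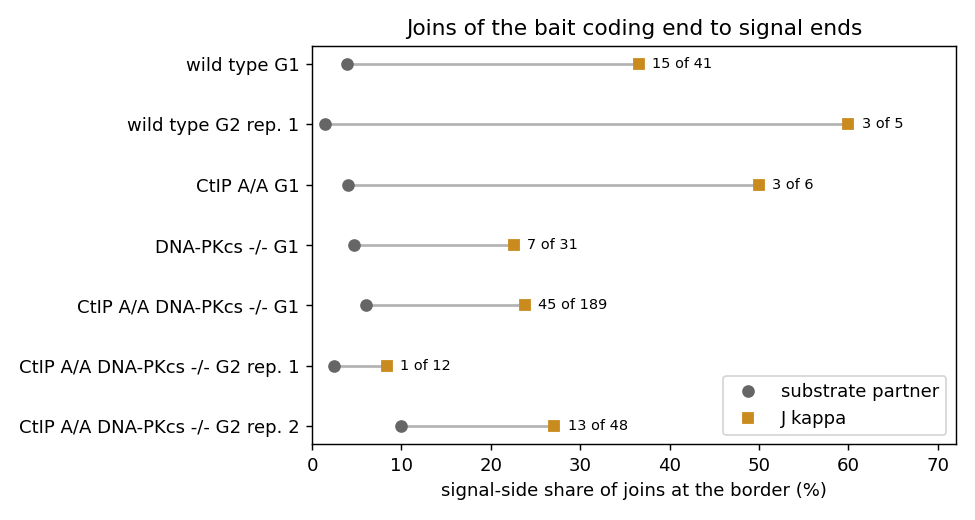
Signal-side joins as a percent of all joins at a border, at Jκ and at the substrate partner, for the 7 libraries with at least 5 Jκ border joins. Each line is 1 library, and the Jκ value is the higher in all 7, by 5.94 to 58.6 points.

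Between the sides of the Jκ border, additions were more frequent on the coding side in 4 of the 4 libraries with at least 5 joins on each side. They were in 53.8% of coding-side and 40% of signal-side joins in WT G1, 25% and 14.3% in DNA-PKcs -/- G1, 18.1% and 8.89% in double mutant G1, and 22.9% and 15.4% in the second double mutant G2 library. The mean difference was 10.3 points ± 2.71 (SD, n = 4, exact sign-flip permutation p = 0.125, the smallest possible, adjusted p = 0.438). The other 5 measures of the joint did not have 1 direction in the 4 libraries. The median loss from the segment was 9.38 bp on the coding side and 10.3 bp on the signal side on average (p = 0.75, exact permutation), and microhomology was in 40.8% and 48.0% of joins (p = 0.875, exact permutation).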

How the data were processed

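The labels' protocols describe sonicated genomic DNA amplified from a substrate primer, BstBI digestion, and alignment to mm10 plus the substrate sequence. The aligner was Bowtie2, per the submitters' processing notes. Versions, the junction caller and the treatment of duplicates are not given in the sources used here. In the deposited tables each line is 1 junction. Per the file headers, the deposited uncut column holds a count of read bases beyond the break, which was 0 in every Jκ join. Depth was 289 to 7068 junctions per library. The members, the measures and the lists were chosen with earlier results of these data known.

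Read bases covered by both alignments counted as microhomology, bases covered by neither as added bases, and joins with none of these as direct. Deletions were counted from the heptamer borders, on the substrate from bait position 1943 and partner position 2813, read from the reads themselves; substrate joins took the same limits as Jκ joins. The rule for named genes took Igkj1 to Igkj5 and the substrate. A telomere-repeat junction held at least 3 exact repeat units. Contrasts were tested two-sided by exact permutation within strata, paired differences by exact sign flips, with Benjamini-Hochberg adjustment and a threshold of 0.05, using scipy 1.17.1, pandas 2.3.3 and numpy 2.4.6 under Python 3.11.15 (figures: matplotlib 3.10.9). The contrast test was checked on simulated data. Alternatives covered duplicates, filters, windows, scale, runs, a replicate block and each library left out. The 6 libraries with I-PpoI breaks were not analysed here. Same-numbered G2 replicates carry no stated link.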

Additional observations from a re-analysis of the deposited data

How the results depend on the processing

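Each result was recomputed under other processing choices, 573 values in all, of which 508 kept their direction and their side of the threshold of 0.05. A kept side says little where the number of libraries allows no p that low. The calls past the threshold were 3 phase measures and the signal-side share of Jκ against substrate joins. For G2 minus G1, the coding-side share was -0.45 points with side windows of 20 bp (adjusted p = 0.0617, exact permutation). On the log odds scale with 0.5 added, the differences were -1.50 for the Jκ share, -1.29 for its coding side and -1.61 relative to substrate joins, none past the threshold after adjustment (adjusted p = 0.0988, exact permutation). In the second sequencing run alone they were -0.914, -0.521 and -5.24, where no exact p below 0.125 is possible. The first run holds no G1 library. Leaving out each library in turn gave -1.23 to -0.630 points for the Jκ share, -0.802 to -0.404 for the coding side and -7.07 to -3.09 per 100 substrate joins, with the call lost in 5 of 12 cases. In this and the other contrasts, leaving out the only library of its group in a stratum also took the rest of that stratum out. The signal side gave -0.304 to -0.164 points and the share of genome junctions without telomere repeats -3.64 to -1.40; each passed the threshold in 2 of the 12.

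The DNA-PKcs difference changed direction in 4 of its 5 measures under at least 1 alternative. It was -0.31 for the Jκ share and -0.12 for the coding side on the log odds scale, and -0.486 points, -0.148 points and -1.50 points (of genome junctions without telomere repeats) in the first run alone. The signal-side difference was 0.0504 in the second run. Leaving out a library gave -0.157 to 0.841 points for the Jκ share, -0.0179 to 0.672 for the coding side and -0.194 to 0.0195 for the signal side. Relative to substrate coding joins it stayed above 0 under every alternative run, at 1.23 to 7.34 per 100 with a library left out, and it passed the threshold under none of them. The CtIP difference was -0.113 points for the Jκ share and -0.175 for the signal side in the first run, and with a library left out 0.0986 to 1.10 points for the Jκ share and -0.000755 to 0.212 for the signal side. With the replicate number as a block, the Jκ share differed by 0.342 points for DNA-PKcs (exact permutation p = 0.563) and by 0.598 for CtIP (p = 0.344), and no call changed; for phase, the G1 libraries have no second replicate to block. The difference between the CtIP effects without and with DNA-PKcs was 1.31 to 2.33 points for the Jκ share, 0.922 to 1.59 for the coding side, 0.351 to 0.631 for the signal side, 4.44 to 7.23 for genome junctions without telomere repeats and 8.01 to 12.9 per 100 substrate joins when a library was left out. Each of these 5 passed the threshold in 1 of 12 cases, without the second WT G2 library (2.23, 1.44, 0.631, 7.23 and 12.7).

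In the paired comparisons no call changed side except 1: the signal-side share, Jκ minus substrate, was 18.3 points (exact p = 0.0625) with at least 10 joins per library. Most of the others could not have changed side, because exact sign flips allow no p below 0.125 with 4 libraries and none below 0.0625 with 5. The direct-join difference between Jκ and substrate was 0.171 points with short alignments left out, 1.98 with at least 3 joins and -3.48 to 0.550 with a library left out, and that of the median bait loss was -5.25 to 0.75 bp. Between coding and signal side, direct joins differed by 4.25 points with at least 3 joins and by 2.53 with at least 10, where the median losses differed by 0.333 bp (segment) and -2.67 bp (bait), and microhomology by 3.18 points after trimming at the heptamer. With a library left out these were -15.7 to 2.53 points, -2.83 to 0.333 bp, -2.67 to 9.67 bp and -12.7 to 4.50 points, and deletions over 20 bp -16.0 to 0.494 points. The cause of these changes was not tested. The depth, 289 to 7068 junctions with 0 to 219 Jκ joins, limits what a single library can show.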
